A study of Mus musculus with 8 samples.

Results

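The enzymes that make cholesterol and fatty acids, with the proteins that regulate their genes and those that move sterol out of the cell, were described in mouse CAD cells labelled as PFN1 knockout and in control cells. The set holds 30 genes of the 23038 in the expression table, chosen by name: 16 enzymes of sterol synthesis, 5 regulators of the transcription factors SREBP-1 and SREBP-2 (both factors included), 1 cytosolic sterol carrier, 6 enzymes of fatty acid synthesis and 2 efflux transporters. CAD cells (Cath.a differentiated) are a mouse catecholaminergic line of central nervous system origin. The PFN1 knockout group held 4 libraries of CAD cells labelled as carrying a Crispr-Cas9 deletion of PFN1, the gene of an actin monomer-binding protein, and the control group held 4 libraries titled wild type, whose genotype field reads "Control KO". Cells of both groups were grown undifferentiated in medium with 8% fetal bovine serum, and stranded libraries were prepared from total RNA after removal of ribosomal transcripts. The labels call the 4 libraries of a group biological replicates, and the number of knockout clones behind them is not given in the sources used here.

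Cholesterol is built in the endoplasmic reticulum from acetyl-CoA through mevalonate, farnesyl diphosphate, squalene and lanosterol. Fatty acids are built in the cytosol from the same acetyl-CoA. SREBP-2 mainly drives the genes of sterol synthesis and SREBP-1 those of fatty acid synthesis. When membrane sterol is low, SCAP carries the SREBP precursors to the Golgi for cleavage, and when it is high, INSIG proteins hold SCAP back. Efflux transporters such as ABCA1 are driven by the oxysterol-sensing liver X receptors. Neurons and neuron-derived lines synthesise sterol and also take it up from lipoproteins, which serum contains.

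The sequence before the start of each gene was read from the RefSeq promoter table (build GRCm38.p6), which covered 23 of the 30 genes. Fdft1, Sqle, Fdps, Stard4, Scd1, Scd2 and Abcg1 had no entry. Motifs were searched on both strands of 300 bases, 250 before and 50 after each annotated start, and a gene counted if any of its windows held the motif. The 5 windows shown first are those of 4 sterol genes that were higher in the knockout and of Acly, the fatty acid gene that was lower in every knockout library. Capitals mark TCACNCCAC (a form of the SREBP site), CCAAT (the NF-Y box) and GGGCGG (the Sp1 box), or their reverse complements, and each line runs 5′ to 3′ over the 250 bases before the start. The windows are chr13:119690101-119690350 on the plus strand for Hmgcs1, chr5:114444019-114444268 on the plus strand for Mvk, chr10:76531355-76531604 on the plus strand for Lss, chr5:4104698-4104947 on the minus strand for Cyp51 and chr11:100528001-100528250 on the minus strand for Acly.
Hmgcs1: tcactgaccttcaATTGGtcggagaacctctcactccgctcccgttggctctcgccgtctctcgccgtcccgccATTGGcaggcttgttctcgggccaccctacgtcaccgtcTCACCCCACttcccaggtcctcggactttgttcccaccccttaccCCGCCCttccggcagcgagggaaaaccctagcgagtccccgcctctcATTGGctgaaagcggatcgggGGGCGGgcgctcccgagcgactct
Mvk: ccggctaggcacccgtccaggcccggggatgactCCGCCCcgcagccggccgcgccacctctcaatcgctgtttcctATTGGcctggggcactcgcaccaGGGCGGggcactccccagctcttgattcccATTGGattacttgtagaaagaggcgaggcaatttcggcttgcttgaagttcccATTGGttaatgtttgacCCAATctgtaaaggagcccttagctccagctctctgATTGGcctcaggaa
Lss: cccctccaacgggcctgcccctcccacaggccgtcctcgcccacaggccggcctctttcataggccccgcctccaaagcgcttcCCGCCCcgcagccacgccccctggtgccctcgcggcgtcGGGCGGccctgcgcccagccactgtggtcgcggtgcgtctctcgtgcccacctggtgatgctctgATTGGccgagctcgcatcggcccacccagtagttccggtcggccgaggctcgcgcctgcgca
Cyp51: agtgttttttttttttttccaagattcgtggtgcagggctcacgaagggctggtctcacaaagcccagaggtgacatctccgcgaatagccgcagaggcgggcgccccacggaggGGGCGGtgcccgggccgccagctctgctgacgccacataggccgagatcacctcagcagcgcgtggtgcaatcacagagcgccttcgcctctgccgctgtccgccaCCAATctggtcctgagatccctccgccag
Acly: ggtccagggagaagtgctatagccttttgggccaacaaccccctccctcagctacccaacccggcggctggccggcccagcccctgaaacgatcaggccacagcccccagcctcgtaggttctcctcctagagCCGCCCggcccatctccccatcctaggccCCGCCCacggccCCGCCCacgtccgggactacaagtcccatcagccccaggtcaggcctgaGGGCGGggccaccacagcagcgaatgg

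Among the 23 genes, Hmgcs1 was the only one whose window held TCACNCCAC, 137 bases before its start, which is 4.35% of these genes and 1.3% of the 9080 tested genes with a window. The palindromic E-box TCACGTGA was in none of the 23 and in 2.35% of tested genes. CCAAT was in 18 of 23, or 78.3%, against 43.7% of tested genes, and GGGCGG was in 19 of 23, or 82.6%, against 71.0%. Mvk had 5 CCAAT boxes and Hmgcs1 had 4, the last of them after the start. Of the genes not called, Nsdhl also had 4 and Hsd17b7 had 3, while Lss and Cyp51, both called higher, had 1 each. The number of boxes was not tested against the change. In Acly the single CCAAT lay after the start, so its line above shows only Sp1 boxes. A match is a description and not a site or a cause, and a missing match says only that these letters are not in the window.

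The windows of Abca1 and Fasn, the efflux gene and the fatty acid gene with the largest positive changes of their kind, shared a run of 18 letters, and they are shown for that run. It was found after the sequences had been read. The windows are chr4:53159896-53160145 on the minus strand for Abca1 and chr11:120824548-120824797 on the minus strand for Fasn, with the run and the motifs in capitals.
Abca1: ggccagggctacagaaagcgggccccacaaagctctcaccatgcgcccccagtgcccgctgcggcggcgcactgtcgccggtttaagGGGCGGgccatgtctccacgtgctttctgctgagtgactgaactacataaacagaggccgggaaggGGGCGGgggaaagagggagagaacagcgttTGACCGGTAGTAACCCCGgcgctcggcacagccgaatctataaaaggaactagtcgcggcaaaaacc
Fasn: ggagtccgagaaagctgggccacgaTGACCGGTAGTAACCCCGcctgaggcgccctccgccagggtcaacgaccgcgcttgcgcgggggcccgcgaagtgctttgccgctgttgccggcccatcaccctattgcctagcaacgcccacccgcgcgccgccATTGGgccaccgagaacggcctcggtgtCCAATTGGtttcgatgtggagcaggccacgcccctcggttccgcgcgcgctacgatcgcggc
The run, tgaccggtagtaaccccg, begins 67 bases before the start of Abca1 and 225 bases before that of Fasn, and it occurred in 2 of the 32851 windows of the table, these 2. The window of Srebf1 shared 13 letters with that of Abca1, tagtaaccccggc, which occurred in 3 windows of the table. No motif search was made on this run.

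Read depth was estimated at 28600000 to 33000000 reads per knockout library and 26200000 to 34500000 reads per control library. The deposited unit is RPKM, reads scaled to the length of the gene and to the mapped reads of the library. Genes that averaged 1 RPKM or more in either group were tested with limma on log2(RPKM + 1), and a gene was called when its Benjamini-Hochberg adjusted p over all 11465 tested genes was under 0.05, two-sided. Pfn1 itself had 139 ± 10.8 RPKM in knockout cells and 423 ± 16.4 RPKM in control cells (SD, n = 4 each). Pfn1 transcript thus remained in every knockout library, at 32.9% of the control level on average, and RNA levels do not show whether the protein was lost. The adrenergic identity gene Phox2a was at 130 RPKM in knockout cells and 144 RPKM in control cells, while Dbh, the noradrenaline-making enzyme, was at 10.4 RPKM in knockout cells and 31.7 RPKM in control cells. Of the enzymes that define catecholamine cells, Th stood at only 0.773 RPKM in knockout and 2.25 RPKM in control cells, and Ddc at 0.355 RPKM in knockout and 0.339 RPKM in control cells. Of 16 markers of glia, immune, endothelial, fibroblast and liver cells, 13 were under 1 RPKM in every library and 2 of these were at 0, and the summed level was 7.64 to 7.94 RPKM in knockout and 5.91 to 7.9 RPKM in control libraries. Of all tested genes 30.4% were called higher in knockout cells and 15.5% lower, and 66.3% of called genes were higher. That share was 47.3% with median-of-ratios scaling and 49.5% with upper-quartile scaling, so small positive changes depend on the scaling.

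All values below are RPKM unless a log2 scale is named. Most members of the sterol synthesis and regulator groups were called higher in PFN1 knockout cells, while the fatty acid members moved in both directions. Every member between mevalonate and lanosterol except Idi1 had a log2 fold change of 0.29 to 0.40. Of the 30 genes, 29 were tested, and all 29 averaged 1 RPKM or more in both groups. Among these, 18 were called higher against a background of 30.4%, 2 were called lower against 15.5%, and 9 were not called. The median log2 fold change was 0.17 over the 29 genes and 0.06 over all tested genes. In 17 genes every knockout library was above every control library, which was so for 26.7% of tested genes, and in 1 gene, Acly, every knockout library was below, which was so for 14.7%. In bulk RNA, a change in the share of cells that express a gene and a change in RNA per cell cannot be told apart. None of the 30 genes lies on chromosome 2, where the median log2 fold change of 947 tested genes was 0.26, against 0.04 elsewhere. With either other scaling 12 members were called higher and 3 lower, and the genes that lost the call were Hmgcs1, Dhcr7, Srebf2, Scap, Insig2 and Acaca.

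**Figure D1:**
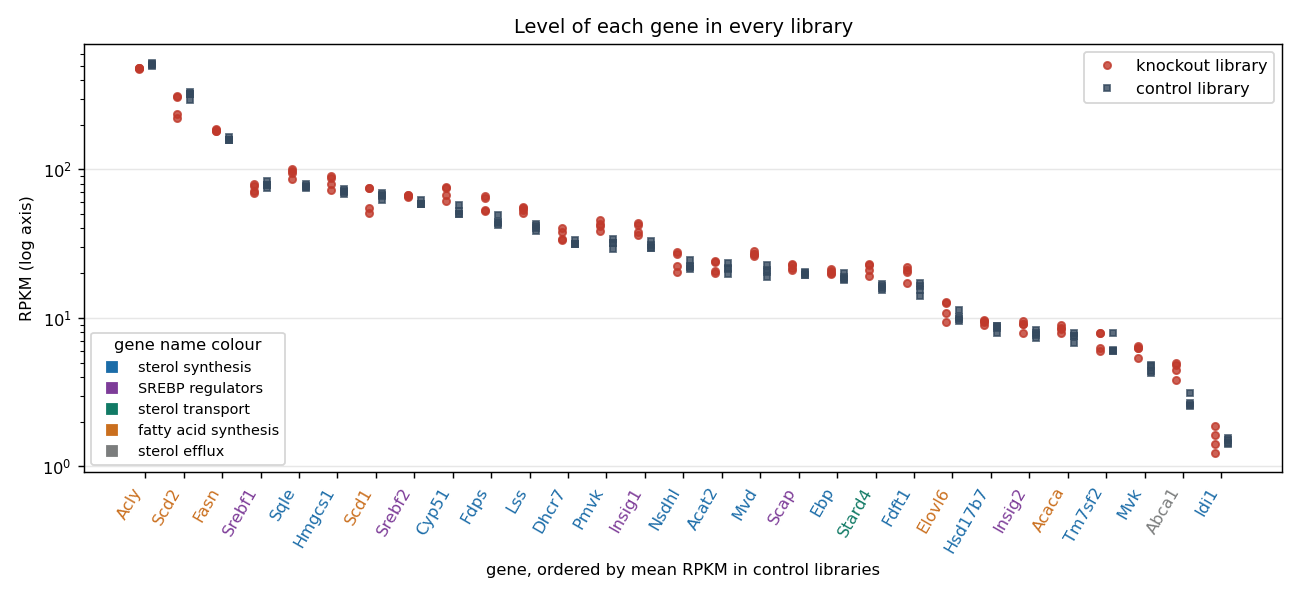
RPKM of each gene by library on a log axis, knockout points left of control points, with genes ordered by control mean and Abcg1, at 0.0275 RPKM or less, left out. Mean levels run from 1.53 RPKM in knockout and 1.47 in control for Idi1 to 479 in knockout and 508 in control for Acly, and the differences between groups are small beside the differences between genes.

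**Figure D2:**
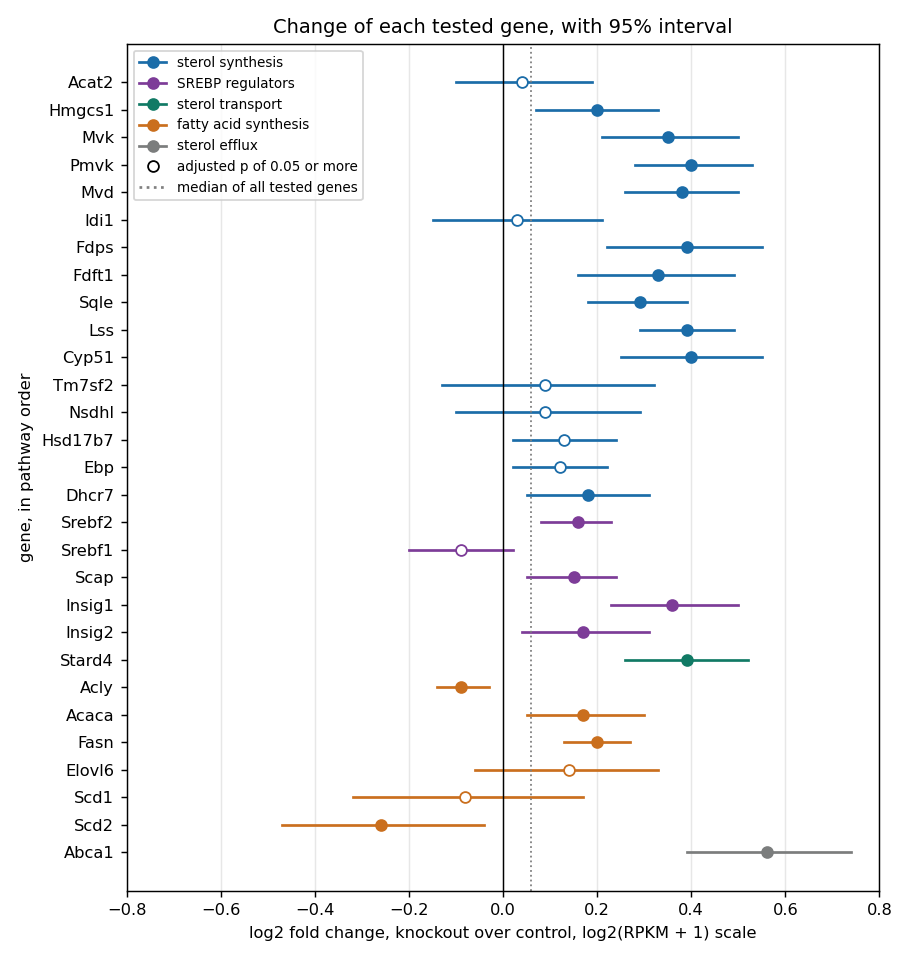
log2 fold change of each tested gene, knockout over control on the log2(RPKM + 1) scale, with 95% intervals from limma; filled points have an adjusted p under 0.05. Genes from mevalonate to lanosterol sit between 0.29 and 0.40 apart from Idi1 at 0.03, and fatty acid genes sit on both sides of 0.

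The levels of the 30 genes spanned a wide range, and RPKM, being per length, allows genes to be compared. Acly, which makes cytosolic acetyl-CoA from citrate, was the highest in both groups. Scd2, a stearoyl-CoA desaturase that is the brain form, was next, followed by Fasn, the fatty acid synthase. Sqle and Hmgcs1 came next in knockout cells, and Srebf1 and Sqle in control cells. Idi1, with 1.53 ± 0.278 in knockout and 1.47 ± 0.0665 in control cells (SD, n = 4 each), was the lowest tested gene. Abcg1, a partner of Abca1 in sterol efflux, had 0.0275, 0.0167, 0.0242 and 0.0106 in knockout libraries, against 0.00936, 0.0231, 0 and 0.0165 in control libraries, and was not tested. The estimated reads behind a tested member ran from 110 to 79900 per library.

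On the path to farnesyl diphosphate 5 of 7 members were called higher in knockout cells, beside 30.4% of all tested genes, with a median log2 fold change of 0.35. Acat2, the thiolase that joins acetyl-CoA units, overlapped between groups, with 20.8, 23.8, 24.2 and 20.2 in knockout and 19.8, 21.5, 21.7 and 23.3 in control libraries. Hmgcs1, the HMG-CoA synthase, had 72.7, 89.7, 87.4 and 79.8 in knockout and 68.6, 70.9, 71.9 and 73.7 in control libraries. Knockout library 1 lay within the control range for Hmgcs1 and the other knockout libraries lay above it. The log2 fold change of Hmgcs1 was 0.20 ± 0.059 (SE; limma adjusted p = 0.0156), and with median-of-ratios scaling it was 0.13 with an adjusted p of 0.0692.

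The 3 enzymes from mevalonate to isopentenyl diphosphate moved together. Mvk, mevalonate kinase, had 6.29, 6.28, 6.46 and 5.39 in knockout libraries, against 4.36, 4.76, 4.82 and 4.28 in control libraries. Pmvk, which adds the next phosphate, had 41.4, 43.1, 45.9 and 38.6 in knockout libraries, against 31.7, 32.1, 29.2 and 33.8 in control libraries. Mvd, the decarboxylase, had 27.1, 27.1, 28.4 and 26.2 in knockout libraries, against 18.9, 20.3, 21.1 and 22.6 in control libraries. No knockout library overlapped the controls in any of the 3. Their log2 fold changes were 0.35 ± 0.065 for Mvk, 0.40 ± 0.058 for Pmvk and 0.38 ± 0.054 for Mvd (SE), with limma adjusted p of 0.00105, 0.000207 and 0.000183.

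Idi1, the isomerase that follows, was not called, with 1.23, 1.62, 1.87 and 1.41 in knockout and 1.55, 1.5, 1.43 and 1.41 in control libraries. It has the fewest reads of the tested members, and its log2 fold change of 0.03 turned to -0.03 without knockout library 3 and to -0.02 with median-of-ratios scaling. Fdps, which makes farnesyl diphosphate, had 52.8, 63.7, 66.2 and 53.6 in knockout libraries, against 41.9, 43.8, 44.5 and 49 in control libraries. The groups did not overlap, and the log2 fold change of Fdps was 0.39 ± 0.075 (SE; limma adjusted p = 0.00145).

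All 3 enzymes from farnesyl diphosphate to lanosterol were called higher in knockout cells, beside 30.4% of all tested genes, with a median log2 fold change of 0.33. Fdft1, squalene synthase, had 17.2, 22, 20.9 and 20.3 in knockout libraries, against 14.1, 15.5, 16.5 and 17.1 in control libraries. Its gap was narrow, since knockout library 1 lay just above control library 4, and its annotated span overlaps that of Ctsb, whose reads may not be told apart where strand was not used in counting. Sqle, the squalene epoxidase that uses oxygen, had 85.7, 97.2, 100 and 94.7 in knockout libraries, against 74.5, 77.1, 76.4 and 80.2 in control libraries. Lss, lanosterol synthase, had 53.1, 54.9, 55.9 and 51 in knockout libraries, against 38.5, 40.1, 42.9 and 41.4 in control libraries, and had the smallest adjusted p of the set. Log2 fold changes were 0.33 ± 0.076 for Fdft1, 0.29 ± 0.048 for Sqle and 0.39 ± 0.044 for Lss (SE), with limma adjusted p of 0.00425, 0.000562 and 4.04e-05.

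Of the 6 genes after lanosterol 2 were called higher, a share near the 30.4% of all tested genes. Their median log2 fold change was 0.12, and the difference from the earlier steps was not tested. Cyp51, the demethylase that opens this stretch, had 60.8, 76, 74.6 and 67.6 in knockout libraries, against 50.3, 52.2, 49.9 and 57.9 in control libraries, a log2 fold change of 0.40 ± 0.07 (SE; limma adjusted p = 0.000795). Dhcr7, the last reductase, had 33.4, 38.1, 40.5 and 33.8 in knockout libraries, against 31.6, 31.6, 31.6 and 33.2 in control libraries. Its groups did not overlap by a small margin, and its log2 fold change was 0.18 ± 0.059 (SE; limma adjusted p = 0.0269), losing the call in 8 of 17 alternatives, among them the removal of knockout library 3 (0.13, adjusted p = 0.0732). Hsd17b7, a ketosterol reductase, had 8.95 to 9.67 in knockout and 7.89 to 8.78 in control libraries, which did not overlap, with an adjusted p of 0.0568. Ebp, the sterol isomerase, had 19.8 to 21.5 in knockout and 18 to 20 in control libraries, with an adjusted p of 0.0581. Tm7sf2 and Nsdhl, a reductase and a decarboxylating dehydrogenase, each had a log2 fold change of 0.09 and overlapped between groups. Leaving out 1 library at a time gave 0.04 to 0.18 for Tm7sf2, highest without control library 3, and 0.03 to 0.17 for Nsdhl, highest without knockout library 1. Without both control library 4 and knockout library 1, Nsdhl was called higher (0.22, adjusted p = 0.0308). Those were its highest control and its lowest knockout library, so leaving them out must raise its fold change. Tm7sf2 shares bases with Vps51, and 1 control library of it, library 3, stood at 7.97, level with the highest knockout libraries.

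**Figure D3:**
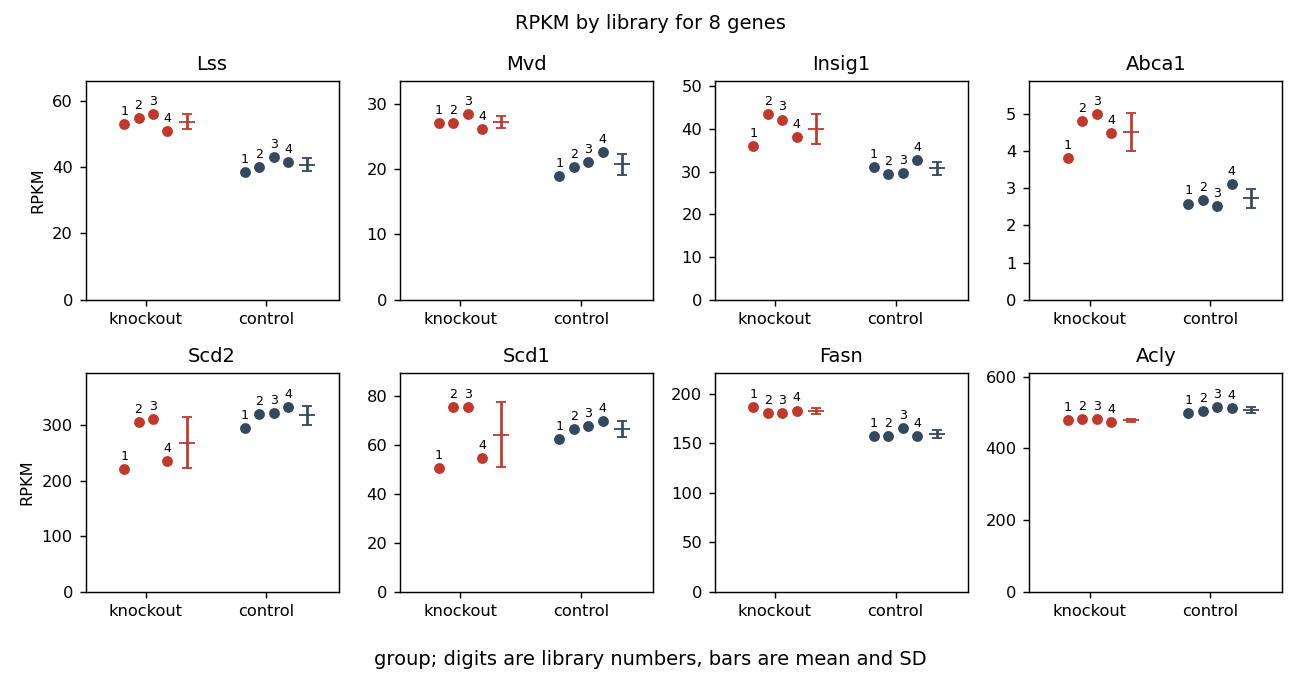
RPKM by library for 8 genes, knockout left of control, with library numbers and with mean and SD bars; each axis starts at 0. For Lss, Mvd, Insig1, Abca1 and Fasn every knockout library is above every control library, for Acly every one is below, and for Scd1 and Scd2 knockout libraries 1 and 4 lie well under knockout libraries 2 and 3.

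Of the 5 SREBP regulators 4 were called higher in knockout cells, beside 30.4% of all tested genes, with a median log2 fold change of 0.16. With either other scaling Insig1 alone of these 4 kept its call. Srebf2, which encodes SREBP-2, had 66.6, 67, 67.5 and 64.8 in knockout libraries, against 58.6, 58.6, 62 and 58.7 in control libraries. Srebf1, which encodes SREBP-1, had 69.1, 77.6, 79.6 and 71.1 in knockout libraries, against 74.9, 78.3, 84 and 78.8 in control libraries. Srebf2 was called, at 0.16 ± 0.035 (SE; limma adjusted p = 0.00335), and Srebf1 was not, at -0.09 ± 0.052 (SE; limma adjusted p = 0.183). The ratio of Srebf2 to Srebf1 was 0.96, 0.86, 0.85 and 0.91 in knockout libraries and 0.78, 0.75, 0.74 and 0.74 in control libraries, without overlap. With median-of-ratios scaling Srebf2 was no longer called (0.09, adjusted p = 0.132) and Srebf1 was called lower (-0.16, adjusted p = 0.0305). The ratio within a library does not depend on scaling. The span of Srebf1 overlaps that of Rai1.

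Scap, the escort of SREBP, had 22.6, 21.7, 20.9 and 22.9 in knockout libraries, against 20, 19.5, 20.3 and 19.3 in control libraries (log2 fold change 0.15 ± 0.044 SE, limma adjusted p = 0.0161). Insig1, an SREBP-2 target whose protein retains SCAP, had 35.9, 43.4, 42.2 and 38 in knockout libraries, against 31, 29.5, 29.7 and 32.8 in control libraries. Its log2 fold change, 0.36 ± 0.061 (SE; limma adjusted p = 0.000592), was the largest of the regulators. Insig2, a close relative, had 7.87, 9.09, 9.5 and 9.14 in knockout libraries, against 7.87, 8.25, 7.31 and 7.69 in control libraries, with overlap at knockout library 1. Its change was 0.17 ± 0.062 (SE; limma adjusted p = 0.0408), and 10 of 17 alternatives lost that call. The scaling alternatives also ended the call of Scap (0.08, adjusted p = 0.231 with median-of-ratios scaling), as did leaving out knockout library 4 (adjusted p = 0.0542) or control library 2 (adjusted p = 0.0505).

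Stard4, which carries sterol between membranes in the cytosol, had 19.1, 22.6, 23 and 20.9 in knockout libraries, against 15.3, 16.8, 15.8 and 16.5 in control libraries. Its groups did not overlap, and its log2 fold change was 0.39 ± 0.059 (SE; limma adjusted p = 0.000313). Abca1, which exports cholesterol to apolipoproteins, had 3.81, 4.8, 4.99 and 4.49 in knockout libraries, against 2.59, 2.68, 2.53 and 3.11 in control libraries. It had the largest log2 fold change of the 29 genes, 0.56 ± 0.08 (SE; limma adjusted p = 0.000182), on a scale that understates the change of low genes, and its mean RPKM was 1.66 times the control mean.

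Of the 6 fatty acid genes 2 were called higher, near the 30.4% of all tested genes, 2 were called lower, beside 15.5%, and 2 were not called. Their median log2 fold change was 0.03, and with a prior variance without a trend neither gene was called lower. Acly had 479, 481, 481 and 473 in knockout libraries, against 498, 505, 517 and 513 in control libraries. The groups did not overlap and the change was small, -0.09 ± 0.026 (SE; limma adjusted p = 0.0194). That call was lost without control library 3 (adjusted p = 0.0567) or knockout library 4 (adjusted p = 0.0577), and in the authors' deposited table Acly has an adjusted p of 0.149. Acaca, the acetyl-CoA carboxylase that commits carbon to fatty acids, had 7.93, 8.98, 8.61 and 8.48 in knockout libraries, against 6.82, 7.5, 7.57 and 7.89 in control libraries (0.17 ± 0.057 SE, limma adjusted p = 0.0292). Knockout library 1 was only just above control library 4, Acaca shares bases with Tada2a, and 8 of 17 alternatives lost the call. Fasn had 187, 180, 180 and 183 in knockout libraries, against 157, 157, 165 and 157 in control libraries, with a change of 0.20 ± 0.031 (SE; limma adjusted p = 0.000388).

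The elongase and desaturases varied widely among the knockout libraries, which were highest in libraries 2 and 3. Elovl6, which extends palmitate, had 9.31, 12.8, 12.5 and 10.8 in knockout libraries, against 9.55, 10.1, 9.76 and 11.3 in control libraries, and was not called. Scd1, a desaturase that makes oleate, had 50.6, 75.5, 75.3 and 54.6 in knockout libraries, against 62.1, 66.5, 67.4 and 69.7 in control libraries. Knockout libraries 2 and 3 were thus above every control library for Scd1 and knockout libraries 1 and 4 below every one, and its change of -0.08 (limma adjusted p = 0.616) turned to 0.03 without knockout library 1. Scd2 had 221, 306, 310 and 236 in knockout libraries, against 294, 320, 321 and 333 in control libraries. Its change, -0.26 ± 0.097 (SE; limma adjusted p = 0.0479), rested on knockout libraries 1 and 4: without library 1 it was -0.17 (adjusted p = 0.109) and without library 4 it was -0.20 (adjusted p = 0.14). The call of Scd2 was lost in 10 of 17 alternatives. Scd1 and Scd2 are related genes of 1 family, and how reads that match both were counted is not given in the sources used here. The ratio of Scd2 to Scd1 was 4.36, 4.05, 4.11 and 4.33 in knockout libraries and 4.74, 4.81, 4.76 and 4.78 in control libraries, lower in all 4 knockout libraries. The ratio of Fasn to Scd2 was 0.85, 0.59, 0.58 and 0.77 in knockout libraries and 0.53, 0.49, 0.51 and 0.47 in control libraries.

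The sterol and fatty acid branches were set side by side as the mean over members of log2(RPKM + 1), each gene centred on its control mean. The sterol branch stood at 0.133, 0.315, 0.341 and 0.165 in knockout libraries, against -0.053, -0.009, 0.004 and 0.058 in control libraries. The fatty acid branch stood at -0.131, 0.129, 0.118 and -0.059 in knockout libraries, against -0.073, 0, 0.015 and 0.059 in control libraries. Every knockout library was above every control library for the sterol branch, and the groups overlapped for the fatty acid branch. The difference between groups was 0.24 for sterol and 0.01 for fatty acid genes. With median-of-ratios and upper-quartile scaling it was 0.17 and 0.18 for sterol and -0.06 and -0.05 for fatty acid genes. Leaving out 1 library at a time gave 0.20 to 0.27 for sterol and -0.02 to 0.06 for fatty acid genes, negative without control library 1, knockout library 2 or knockout library 3. Without Scd1 and Scd2 the fatty acid branch stood at 0.03, 0.161, 0.14 and 0.087 in knockout libraries, a difference of 0.10. All 16 sterol genes had a positive log2 fold change, as had 7030 of the 11465 tested genes, though Acat2 and Idi1 turned negative with either other scaling.

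In both branches knockout libraries 2 and 3 stood above library 4, and library 4 above library 1. The sterol minus fatty acid difference varied less: it was 0.264, 0.185, 0.223 and 0.224 in knockout libraries and 0.02, -0.009, -0.01 and -0.001 in control libraries. The regulators stood at 0.078, 0.192, 0.195 and 0.137 in knockout libraries, against -0.01, -0.006, 0.012 and 0.004 in control libraries. The efflux pair stood at 0.195, 0.324, 0.352 and 0.28 in knockout libraries, against -0.027, 0, -0.047 and 0.075 in control libraries, a difference of 0.29 that comes almost wholly from Abca1. Over all tested genes the same mean was 0.03, 0.076, 0.072 and 0.082 in knockout libraries, against -0.029, -0.008, -0.029 and 0.066 in control libraries.

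**Figure D4:**
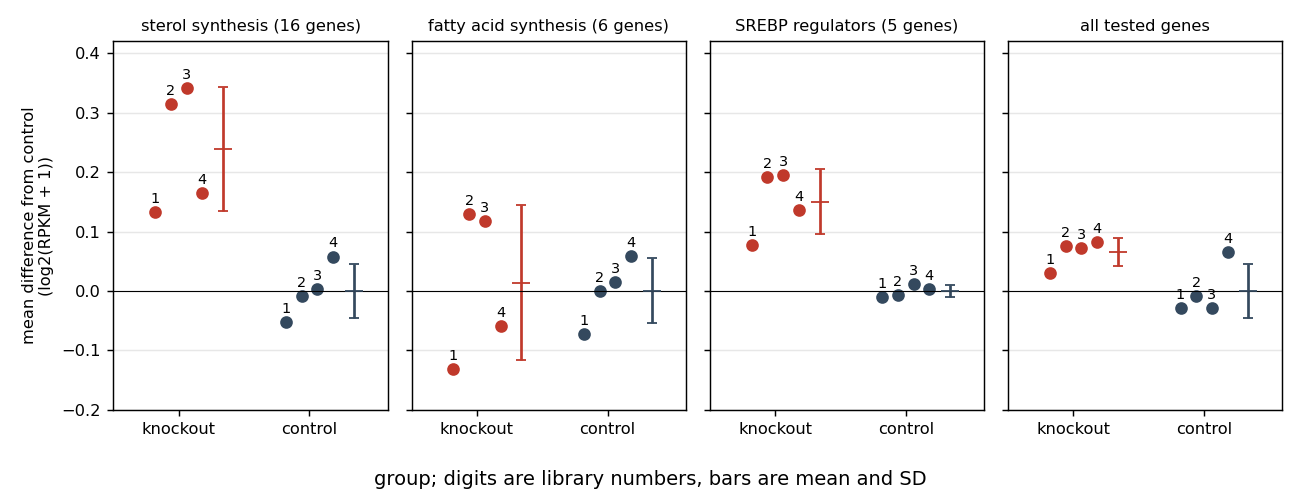
Mean difference from the control mean on the log2(RPKM + 1) scale by library for sterol synthesis, fatty acid synthesis, SREBP regulators and all tested genes, knockout left of control, with mean and SD bars and library numbers. Knockout libraries 2 and 3 are the highest in the first 3 panels, and in the fatty acid panel knockout library 1 lies below every control library while knockout library 4 lies between control libraries 1 and 2.

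Library by library, knockout 1 had 17 members above every control library and 7 below every one, where 39.4% and 32.3% of tested genes did so. Knockout 2 had 25 above and 1 below, with backgrounds of 44.0% and 24.2%. Knockout 3 also had 25 above and 1 below, with backgrounds of 42.5% and 24.4%. Knockout 4 had 19 above and 5 below, with backgrounds of 46.3% and 24.1%. Of the 16 sterol genes 10, 15, 15 and 11 were above every control in knockout libraries 1 to 4, and of the 6 fatty acid genes 2, 4, 4 and 2 were. Knockout library 1 was the lowest knockout library for 18 of the 29 members, as it was for 46.1% of tested genes, and knockout library 4 for 8, against 10.7%. Estimated depth was 29000000, 28600000, 33000000 and 30200000 reads in knockout libraries 1 to 4, and the ribosomal transcript Rn45s stood at 20330, 15133, 15597 and 14396 RPKM there, against 23869, 22618, 24309 and 15691 RPKM in control libraries 1 to 4. Among knockout libraries Rn45s was highest in library 1, and a link of either measure to the order of the knockout libraries was not tested. Rn45s, a sign of how well ribosomal RNA was removed, moved with the groups, except that control library 4 lay below knockout library 1. Those were also the highest control and the lowest knockout library for the sterol branch. Without both, 22 members were called higher and the sterol difference was 0.29. Removing exactly those libraries must widen the sterol difference and tends to add higher calls among sterol genes. It is therefore no check of a link to Rn45s, which was not tested. Whether another property of the cultures moves with the order of the knockout libraries was not tested.

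**Figure D5:**
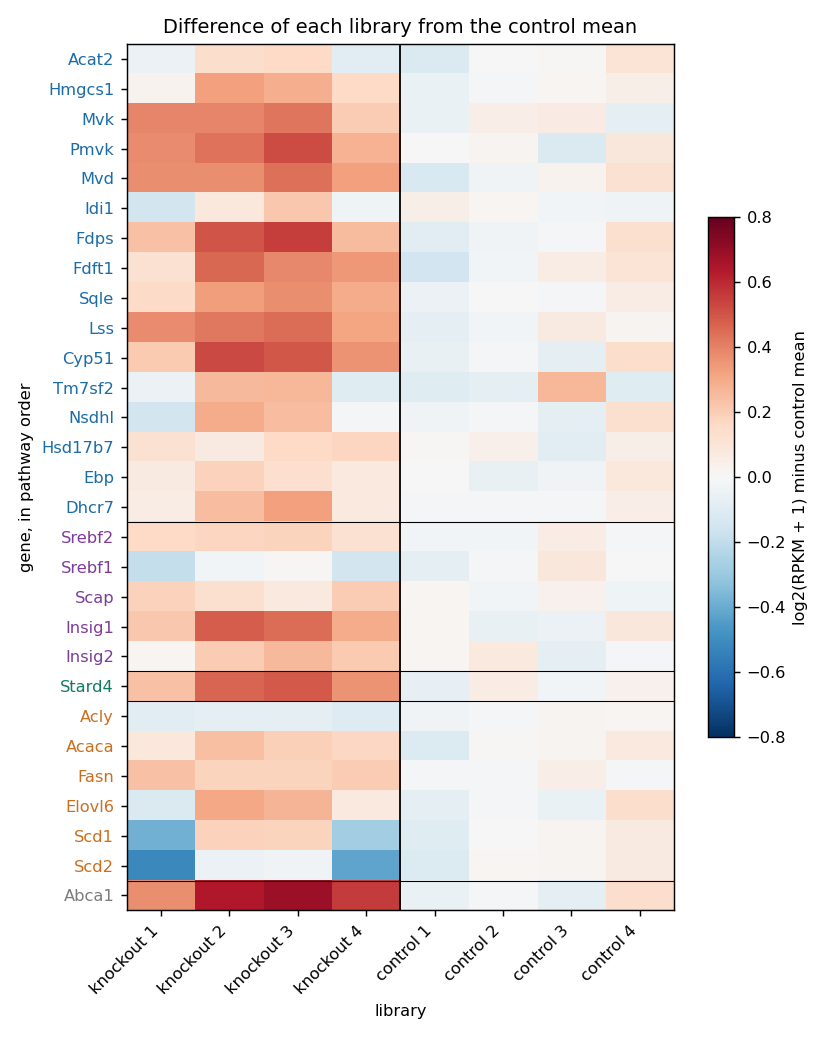
Difference of each gene from its control mean on the log2(RPKM + 1) scale by library, knockout columns left of control columns, with genes in pathway order and Abcg1 left out. Most sterol genes are furthest above 0 in knockout columns 2 and 3, while Scd1 is below 0 in knockout columns 1 and 4 and above 0 in knockout columns 2 and 3.

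The spread among knockout libraries was wider than among control libraries in 21 of the 29 members, or 72.4%, against 53.7% of tested genes. The median SD on the log2 scale was 0.116 in knockout and 0.0682 in control libraries over the members, and 0.0817 in knockout and 0.0754 in control libraries over all tested genes. For Scd1 the SD was 13.3 RPKM in knockout and 3.19 RPKM in control libraries. Acly went the other way, with an SD of 3.82 RPKM in knockout and 8.18 RPKM in control libraries, as did Mvd, with 0.884 RPKM in knockout and 1.55 RPKM in control libraries.

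Among 57 tested genes of the same pathways outside the set, 22 were called higher, beside 30.4%, and 8 lower, beside 15.5%. Their median log2 fold change was 0.08. The lists differed: 1 of 8 other sterol synthesis genes was called higher (median 0.05), and 11 of 23 other fatty acid genes were (median 0.12). Outside the set the fatty acid genes thus had the larger share called higher, opposite to the members. The counts for the lists that follow stand beside the same background. Among 8 other sterol synthesis genes only Sc4mol, the methyl sterol oxidase, was higher (0.36) and only Acat3, a copy of Acat2, was lower (-0.14), though reads may be split between the copies. Sc4mol acts later than Cyp51, and had 27.8, 32.3, 31.3 and 28.9 in knockout libraries, against 22.2, 23, 22.4 and 25.2 in control libraries. Among 15 genes of SREBP processing and its partner factors 5 were higher and 2 lower. The higher ones included the liver X receptor gene Nr1h3 (0.44) and its partner Rxra (0.38), both on chromosome 2, and Erlin1 (0.16) and Erlin2 (0.13), whose proteins sit in the endoplasmic reticulum membrane. The lower ones were the NF-Y subunit genes Nfyb (-0.25) and Nfya (-0.15). Nr1h3 passed the filter only through the knockout group.

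Among 11 tested genes of sterol uptake and trafficking 5 were higher and 1 was lower. The higher ones were the transporter gene Abca7 (0.52), the lysosomal sterol carrier gene Npc2 (0.32), the apolipoprotein E receptor gene Lrp8 (0.28), the ubiquitin ligase gene Mylip (0.23) and the lysosomal sterol exporter gene Npc1 (0.17). The lower one, the neuronal efflux gene Abcg4 (-0.54), passed the filter only through the control group. Among 23 other fatty acid genes 11 were higher and 4 lower. Acss2, which makes acetyl-CoA from acetate and lies on chromosome 2, was the largest (0.85), with 3.83, 4.5, 4.67 and 3.78 in knockout libraries, against 1.77, 1.72, 1.97 and 2.02 in control libraries. Slc25a1, the mitochondrial citrate exporter that supplies Acly, was higher by 0.48, with 96.9, 104, 106 and 101 in knockout libraries, against 69.5, 71.5, 74.8 and 75.3 in control libraries. Next came Aacs (0.38), which activates acetoacetate, Hsd17b12 (0.38), a reductase of fatty acid elongation on chromosome 2, Lpin1 (0.36), a phosphatidate phosphatase, and Fads3 (0.32), of the desaturase family. The 4 lower ones, named after their values were seen, were Acsl3 (-0.30), Elovl4 (-0.25), Elovl5 (-0.18) and Mid1ip1 (-0.09). Without chromosome 2 genes, 18 of 53 other pathway genes were called higher and 8 lower, near the background.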

How the data were processed

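RNA from 4 PFN1 knockout and 4 control CAD cell cultures was sequenced, and the authors deposited 1 table with an RPKM value per gene and library, with a log2 CPM and log2 fold change, and with adjusted p-values of their own comparison. Per the submitters' processing notes, CASAVA, RSEM, Bowtie, TopHat and edgeR were used; their role and order are not given, and the build named there is hg19, whereas the deposited table holds mouse genes. The strand setting of the counting is not given in the sources used here.

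The deposited RPKM values were used as they stand. After adding a pseudocount of 1 and taking log2, genes averaging 1 RPKM or more in either group were tested with limma 3.58.1 (R 4.3.3). The prior variance followed a trend, and group was the single term. P-values were Benjamini-Hochberg adjusted over all tested genes, two-sided, with a threshold of 0.05. Errors after ± are SD of libraries or SE of a log2 fold change. P-values weigh the difference between groups against the spread between these libraries. Since the number of knockout clones is not given, it is not known whether they cover spread between clones. Read depth was estimated from the steps between low RPKM values, which give relative depth, with the absolute scale taken from the authors' deposited log2 CPM of genes at 0 in every library, assuming a prior count of 2, so read numbers are approximate. The test was also tried on simulated data with known changes and the same spread setting for both groups.

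Pathway, regulator and marker lists and the members themselves were chosen with earlier results of these data known. All members are accounted for. Other genes are named from the pathway lists, up to 6 called ones with the largest change in each, plus the fatty acid genes called lower, which were added after their values were seen. Some genes of these lists are not reported here by name. Alternatives were 2 pseudocounts (0.1 and 0.5), 2 filters (none and 0.3 RPKM), 2 scalings, a prior without trend, a replicate block and libraries left out. The letter run shared by the Abca1 and Fasn windows was searched after the sequences were seen.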

Additional observations from a re-analysis of the deposited data

Results flagged for a closer look

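In 5 of 68 groups of 4 libraries, 1 library stood apart from the other 3 by Dixon's test at the 95% level. Chance flags about 1 in 20 groups. Mvk stood at 5.39 RPKM in knockout library 4, against 6.28 to 6.46 RPKM in the other knockout libraries, and was still above every control library. Among control libraries, library 3 stood apart in 3 genes. Tm7sf2 was at 7.97 RPKM there and at 5.99 to 6.08 RPKM in the other control libraries. Srebf2 was at 62.0 RPKM there and at 58.6 to 58.7 RPKM in the others. Fasn was at 165 RPKM there and at 157 RPKM in each of the others. Dhcr7 was at 33.2 RPKM in control library 4 and at 31.6 RPKM in each other control library. In Srebf2, Fasn and Dhcr7 the library that stood apart was the control library nearest to the knockout range, and every knockout library was still higher.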

How the results depend on the processing

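Across 17 alternatives 12 of the 20 called members kept their call and direction: Mvk, Pmvk, Mvd, Fdps, Fdft1, Sqle, Lss, Cyp51, Insig1, Stard4, Fasn and Abca1. With median-of-ratios and upper-quartile scaling 2871 and 2758 genes were called lower instead of 1772, 2578 and 2701 were called higher instead of 3489, 15 and 14 other pathway genes were called lower instead of 8, and 1 fatty acid gene was called higher instead of 2. Acat2 then changed sign, to -0.03 and -0.02, and so did Idi1, to -0.02 and -0.01. Of the 2 members called lower, both in the fatty acid branch, 1 remained with no filter or a filter of 0.3 RPKM and 0 with a prior without trend. Leaving out 1 library at a time gave 15 to 20 members higher, 0 to 2 members and fatty acid genes lower, 1 to 3 fatty acid genes higher and 5 to 7 other pathway genes lower. Without control library 4 and knockout library 1 together, 22 members were higher, 1 member, a fatty acid gene, was lower, and Scd1 changed sign to 0.05. Those were the highest control and the lowest knockout library for the sterol branch, so leaving them out must widen its difference. Leaving out 1 library at a time, Scd1 ran from -0.16 to 0.03, positive without knockout library 1 alone, and Idi1 ran from -0.03 to 0.09, negative without knockout library 3 alone. The efflux pair difference was 0.40 with a pseudocount of 0.1 in place of 0.29. The cause of these changes was not tested.

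With the replicate number as a block, 17 members were higher and 2 lower, Insig2 losing its call (adjusted p = 0.0579), and 3477 genes were higher and 1728 lower. Same-numbered libraries deviated together by correlations of 0.176, 0.023, -0.192 and -0.084, so the numbers were not taken to pair the samples. Low levels limit Idi1 and Abcg1 most.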
